A study of Mus musculus with 7 samples.

Results

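The imprinted Dlk1-Dio3 microRNA (miRNA) cluster is a run of precursor hairpins on mouse chromosome 12, and its mature products were followed here in extracellular vesicles (EVs) of adipose tissue. Members were the mature miRNAs of the combined count table whose number belongs to a fixed list of 48 cluster miRNA numbers, with any letter or arm. The list found 78 members from 48 precursors among 1084 entries, and miR-544 and miR-882 had no row. The vesicles came from fat of male C57BL/6J mice kept for 12 weeks on a chow diet (Chow, 4 libraries) or a high-fat diet (HFD, 3 libraries), with no other genotype or agent given. Small RNA of each library was sequenced, and the table holds whole read counts per mature miRNA. The sources used here do not give the fat depot or the number of animals behind a library, so every p-value below measures the spread between libraries, which may be technical.

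In this domain the protein-coding genes, among them Dlk1 and Dio3, are expressed from the chromosome inherited from the father. The non-coding RNAs Meg3, Rian and Mirg and the miRNA hairpins are expressed from the chromosome inherited from the mother. Dlk1 encodes a surface protein known as preadipocyte factor, which restrains the formation of fat cells. The hairpins are processed from long maternal transcripts, and each can give a mature miRNA from its 5p arm and one from its 3p arm. Expression of the cluster is known to be high in the embryo, the placenta and the adult brain. In mice, deletion of the distal miR-379 to miR-410 run disturbs the metabolic adaptation of newborns.

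All 48 precursors lie on the plus strand of chr12:109563692-109743795, a span of 180.104 kb (positions from RefSeq, GRCm38.p6), as the name of the cluster says. By position they form 3 stretches. The first, from Meg3 to the antisense of Rtl1 (chr12:109563692-109595388), gives 20 members. It holds Mir770 within Meg3 and the 5 precursors Mir431, Mir433, Mir127, Mir434 and Mir136 opposite Rtl1, whose messenger RNA these antisense miRNAs can cleave in mice. The Rian stretch (chr12:109611500-109618336) gives 4 members from Mir341 and Mir370. The distal stretch, miR-379 to miR-410 (chr12:109709060-109743795), gives 54 members, and 12 of its precursors, from Mir382 to Mir410, lie within Mirg. The remaining 28 precursors, with Mir666 placed by its mature arms, overlap none of Meg3, Rtl1, Rian and Mirg in the GENCODE annotation of that build.

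RefSeq gave a mature sequence for 75 of the 78 members, 19 to 25 bases long. The most abundant members are shown first because most of the cluster's reads, and so most of what can be measured, belong to them. Capitals mark the seed, bases 2 to 8 counted from the 5′ end, which pairs with target messenger RNAs.
miR-379-5p: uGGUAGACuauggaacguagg
miR-381-3p: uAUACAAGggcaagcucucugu
miR-434-5p: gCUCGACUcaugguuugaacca
miR-127-3p: uCGGAUCCgucugagcuuggcu
miR-541-5p: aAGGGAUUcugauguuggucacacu
miR-411-5p: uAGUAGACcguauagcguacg
These lie at chr12:109709065-109709085 (miR-379-5p), chr12:109726870-109726891 (miR-381-3p), chr12:109594528-109594549 (miR-434-5p), chr12:109592888-109592909 (miR-127-3p), chr12:109742422-109742446 (miR-541-5p) and chr12:109710190-109710210 (miR-411-5p). The 6 have 6 different seeds. Seeds were shared by 4 pairs of members in all, and in 1 pair, miR-379-3p and miR-411-3p with seed AUGUAAC, both could be tested.

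A second set is shown because its members are alike in sequence. Reads could have gone to either one if enough mismatches were allowed in counting. miR-300-3p differs from miR-381-3p at 3 of 22 bases, and miR-379-3p differs from miR-411-3p at 2 of 22.
miR-300-3p: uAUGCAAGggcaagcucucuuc
miR-381-3p: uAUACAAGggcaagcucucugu
miR-379-3p: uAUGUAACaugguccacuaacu
miR-411-3p: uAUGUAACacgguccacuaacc
The sources used here do not say how mismatches were treated in counting, so the values of these 4 members carry that uncertainty. It also touches miR-376b-5p, which differs from miR-376c-5p, a member with 1 count in all, at 1 of 22 bases. The same holds for miR-376b-3p, which differs from miR-376a-3p, a member with 7 counts in all, at 3 of 21 bases. miR-379-3p also differs from miR-758-3p, with 6 counts in all, at 3 of 19 bases. miR-495-3p and miR-543-3p differ at 4 of 22. miR-376c-3p, with 70 counts in all, had no sequence and could not be compared.

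The libraries differed widely in depth. Total counts were 2120171, 180694, 48840 and 2294878 in Chow 1 to Chow 4, and 1969840, 1825488 and 5941955 in HFD 1 to HFD 3. Cluster members took 3840 of those counts in Chow 1, 4947 in Chow 4 and 4042, 3625 and 13859 in HFD 1 to HFD 3, and far fewer in the shallow Chow 2 and Chow 3. A count of 0 therefore allowed up to 61.4 CPM (counts relative to the library's total) in Chow 3 and 16.6 in Chow 2, against 0.505 to 1.64 in the other 5 libraries. Such limits and the exact intervals of shares below cover counting error only, since reads were not counted as single molecules. The intervals of the fold changes also include the spread between libraries. Markers of cell types were read in the same libraries, as summed CPM scaled by the trimmed mean of M-values (TMM). Some lists differed between the diets without overlap and others overlapped. The test of diet given below called 2.86% of all miRNAs tested. The list of 7 leukocyte miRNAs lay at 3959 to 8433 in Chow and 11746 to 20890 in HFD, with 4 of 7 higher by the test. The stromal list lay at 16400 to 28570 in Chow and 7193 to 9931 in HFD, with 1 of 7 lower by the test. The median log2 fold change over its 7 members was -0.29. The endothelial list of 2 lay at 2353 to 5050 and 971 to 1029, with 1 lower by the test. The adipocyte-rich list of 4, most of it miR-148a-3p, lay at 380409 to 811787 and 199373 to 254979, with 1 lower by the test. The neural list overlapped between diets (794 to 2083 in Chow, 1600 to 2814 in HFD), with 0 of its 4 tested members called and a median log2 fold change of 1.29. Within it miR-9-5p lay at 66.0 to 256 in Chow and at 182, 1163 and 623 in HFD, and miR-124-3p, the defining neuronal miRNA, was at 0 in 4 of 7 libraries and at most 0.618. The red blood cell list of 3 lay at 1957 to 2469 in Chow and 573 to 1903 in HFD without overlap, with 0 called. The striated muscle and male reproductive tract lists overlapped between diets, with 0 called. The part of these cells in the cluster's values was not tested.

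The cluster was a small part of the vesicle miRNA pool, and its share of all counts differed less between the diets than among the Chow libraries. It held 0.181%, 0.240%, 0.260% and 0.216% of counts in Chow 1 to Chow 4 and 0.205%, 0.199% and 0.233% in HFD 1 to HFD 3. The exact (Clopper-Pearson) 95% intervals ran from 0.175% to 0.187% in Chow 1, from 0.217% to 0.309% in Chow 3 and from 0.229% to 0.237% in HFD 3. The HFD libraries thus fell inside the range of the Chow libraries, and the means were 0.224% ± 0.0339 (SD, n = 4) and 0.212% ± 0.0184 (SD, n = 3), a ratio of 0.948. From the lowest to the highest of the 7 libraries the share differed by a factor of 1.44. The log2 ratio of HFD to Chow, -0.08, turned to 0.0016 without Chow 3 and to 0.098 without Chow 2 and Chow 3.

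That reading depends on 1 miRNA outside the cluster. miR-148a-3p, an abundant miRNA of adipose tissue and liver, held 49.7% ± 9.31 of counts in Chow and 23.8% ± 2.71 in HFD. With its counts taken out of the total, the cluster held 0.423%, 0.426%, 0.619% and 0.357% in Chow and 0.279%, 0.261% and 0.295% in HFD. On that total the diets no longer overlapped, the means were 0.456% ± 0.113 and 0.278% ± 0.0174, and the ratio was 0.610. The sum of TMM-normalised CPM lay between these readings, at 2544, 2032, 2793 and 2356 in Chow and 1885, 1685 and 2140 in HFD, a ratio of 0.783 with overlap. Counts give shares of a library and not amounts per vesicle, so fewer vesicles of one source and fewer copies per vesicle cannot be told apart.

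**Figure D1:**
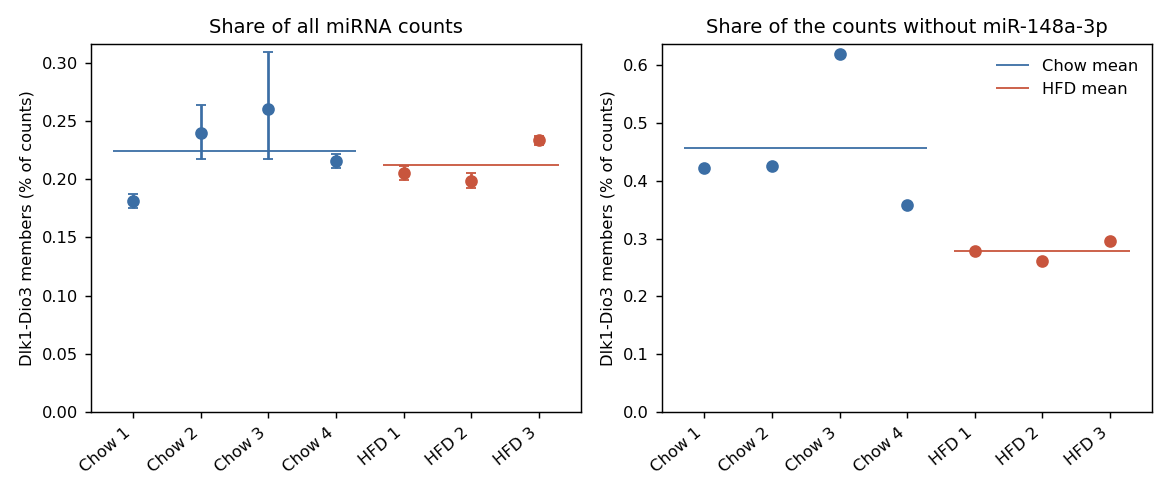
Share of counts held by the 78 Dlk1-Dio3 members in each library (y axes, % of counts), of all miRNA counts with exact 95% counting intervals (left) and of the counts left without miR-148a-3p (right, no intervals drawn). Points are libraries and lines are diet means; on the left HFD (0.199% to 0.233%) sits inside the Chow range, and on the right all 3 HFD libraries lie below all 4 Chow libraries.

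Detection followed depth. The number of members with at least 1 count was 60, 32, 20 and 57 in Chow and 59, 62 and 71 in HFD. After every library was thinned at random to 48840 counts, the depth of Chow 3, the numbers were 23, 22.5, 20 and 24 in Chow and 24.5, 24 and 26 in HFD (medians of 20 draws; Chow 3 unthinned). At least 5 counts were held by 41, 16, 6 and 44 members in Chow and by 38, 40 and 54 in HFD. Of the 78 members 16 were found in every library, 24 had fewer than 10 counts over all 7, 42 were missing from both Chow 2 and Chow 3, and miR-370-5p was at 0 throughout. For Chow 2 and Chow 3, 15 members were left blank in a separate Chow table and stand as 0 in the combined one.

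For the test of diet, 35 members had enough counts and 43 did not. The 43 had a median of 7 counts over all libraries and held 2.22% of the cluster's counts; the highest of them, miR-369-5p, had 106. The counts below describe these 35 and not the cluster as a whole.

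No member passed the test of HFD against Chow, against 2.86% of all miRNAs tested. edgeR's quasi-likelihood test with Benjamini-Hochberg adjustment over all 385 miRNAs tested called 11, of which 8 were higher and 3 lower in HFD. The smallest adjusted p among the 35 members was 0.244. At an unadjusted p under 0.05 there were 0 members, against 93 of the 385 (24.2%), and DESeq2 also called 0 members. The 11 calls over all miRNAs rested on single libraries: 32 were made without Chow 1, 4 without Chow 2, 6 without Chow 3, 1 without Chow 4, 0 without HFD 2 and 1 without HFD 3. The members called stayed at 0 in each of these fits.

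The members' log2 fold changes ran from -1.07 to 0.74 with a median of -0.29, where the median over all 385 was -0.02. Of the 35, 24 were negative and 11 positive, and 50.6% of all miRNAs tested were negative. The median absolute log2 fold change was 0.34 among the members and 0.62 among all. Where counts were scaled to library size alone, the members' median turned to 0.05 and that of all miRNAs to 0.31, so the members stayed below the median of all by 0.26. With DESeq2, which tested 77 members, the order was the other way, at -0.52 for the members and -0.70 for all miRNAs. With no filter edgeR also tested 77 members, and the medians were 0.22 for the members and 0.56 for all miRNAs. The members' median also moved to -0.0024 without Chow 1 and to -0.05 without HFD 2. That of all miRNAs moved to 0.12 and 0.035 in these fits, so the members stayed below it in both.

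Precision limits what these values can exclude. The standard error of a member's log2 fold change was 0.54 at the median and ran from 0.40 to 0.82 over the 32 members that have one. None of those 32 had a 95% interval that stayed within a 2-fold change in either direction. The interval reached below -1 for 27 members and above 1 for 16. A change of 2-fold in most members was thus not detectable here, and the missing calls do not show that the diets were alike.

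**Figure D2:**
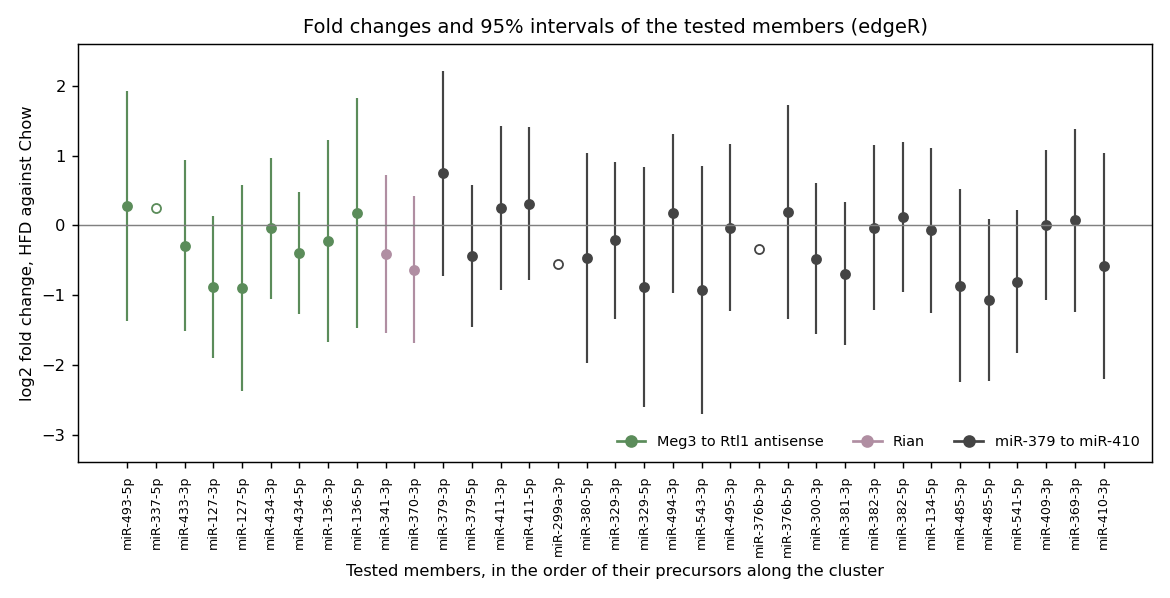
Log2 fold change of HFD against Chow (y axis) for the 35 tested members, placed in the order of their precursors along the cluster and coloured by stretch; vertical lines are 95% intervals from edgeR, and the 3 open points have no standard error. Every interval drawn crosses 0, and the points run from -1.07 (miR-485-5p) to 0.74 (miR-379-3p).

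The 5 members with the highest mean level, miR-379-5p, miR-381-3p, miR-434-5p, miR-127-3p and miR-541-5p, carried most of the cluster's counts. They held 54.2%, 67.7%, 72.4% and 53.7% of the cluster in Chow 1 to Chow 4 and 50.5%, 52.7% and 51.6% in HFD. All 3 HFD libraries lay below all 4 Chow libraries, with means of 62.0% ± 9.50 and 51.6% ± 1.06. The high Chow values came from Chow 2 and Chow 3, the shallow libraries, while Chow 1 and Chow 4 stood within 4 points of HFD. Without Chow 2 and Chow 3 the difference of the means shrank from -10.4 to -2.36 percentage points. No test was made of this share, since the 5 were chosen by their level in the same libraries.

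miR-379-5p, the first hairpin of the distal stretch and the member with the highest mean, had TMM-normalised CPM of 334.6, 295.7, 659.8 and 235.2 in Chow 1 to Chow 4 and of 280.2, 220.8 and 316.4 in HFD 1 to HFD 3. The diets overlapped, and the Chow maximum was the 30 counts of Chow 3 (log2 fold change -0.44 with SE 0.47 and adjusted p = 0.650). miR-381-3p, from the middle of the distal stretch, stood at 423, 202, 616 and 276 normalised CPM in Chow and 226, 212 and 247 in HFD. Chow 1 and Chow 3 were high and Chow 2 was below every HFD library (log2 fold change -0.70 with SE 0.47 and adjusted p = 0.398). Its near-copy miR-300-3p had a lower level, 66.4 ± 24.2 normalised CPM in Chow and 46.3 ± 8.45 in HFD, with a log2 fold change of -0.48.

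miR-541-5p, near the distal end within Mirg, had 157, 300.4, 110.0 and 204.7 normalised CPM in Chow and 97.5, 107.9 and 132.5 in HFD. Chow 3, with 5 counts, lay within the HFD range and the other 3 Chow libraries lay above it (log2 fold change -0.81 with SE 0.47 and adjusted p = 0.318). miR-411-5p went the other way in the point estimate. Its normalised CPM was 184, 79.8, 66.0 and 201 in Chow and 135, 158 and 230.4 in HFD, a log2 fold change of 0.31 with SE 0.50 and adjusted p = 0.778. The low Chow values were the shallow Chow 2 and Chow 3, and without both of them the log2 fold change was -0.15.

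The Rtl1 antisense members were led by both arms of miR-434 and by miR-127-3p. miR-434-5p had 289, 357, 242 and 374 normalised CPM in Chow and 231, 232 and 263 in HFD. It overlapped through Chow 3 alone, and its standard error was the smallest of any member (log2 fold change -0.40 with SE 0.40 and adjusted p = 0.628). miR-434-3p, from the other arm, had a log2 fold change of -0.04 and means of 99.4 ± 30.1 and 100.5 ± 28.0. miR-127-3p, which in mice is fully complementary to the Rtl1 transcript, stood at 175, 221, 396 and 175 normalised CPM in Chow and at 118, 114 and 145 in HFD. All HFD libraries lay below all Chow libraries, a fold of 0.543 that did not pass the test (-0.88 on the log2 scale, SE 0.47, adjusted p = 0.272). Its high Chow 3 value was 18 counts. The log2 fold change was -0.59 without Chow 3 and -0.48 without Chow 2 and Chow 3.

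**Figure D3:**
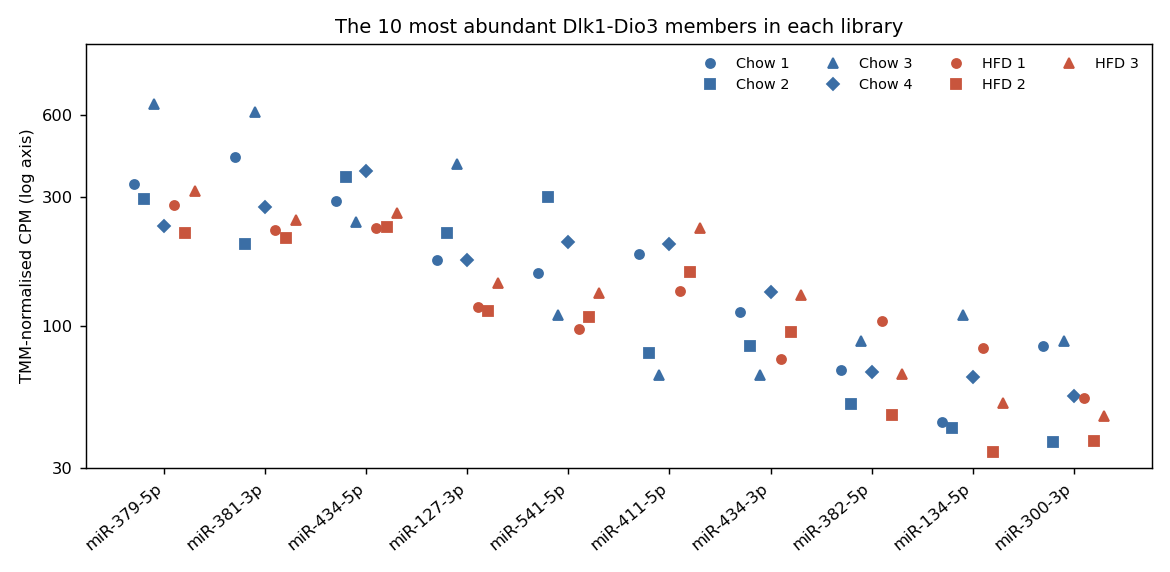
TMM-normalised CPM (y axis, log scale) of the 10 members with the highest mean, in each of the 7 libraries; colour gives the diet and marker shape the replicate number. miR-127-3p is the one member of these 10 whose HFD libraries (114 to 145) all lie below its Chow libraries (175 to 396), and the Chow 3 points are the highest for miR-379-5p and miR-381-3p and the lowest of all libraries for miR-411-5p.

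Besides miR-127-3p, the groups did not overlap for 2 of the 35 members, and all 3 were lower in HFD. Over all 385 miRNAs 86 did not overlap (22.3%), a larger share than 3 of 35. With HFD lower there were 36 (9.35%), so in that direction 3 of 35 is near the background. With HFD higher there were 50 of the 385, against 0 members. miR-485-5p, within Mirg, had 13.9, 18.8, 22.0 and 20.5 normalised CPM in Chow and 4.197, 10.7 and 10.3 in HFD. It had the smallest unadjusted p of the members, 0.0683 by edgeR, with a log2 fold change of -1.07, an SE of 0.53 and an adjusted p of 0.244, and its Chow 3 value was 1 count. miR-370-3p, from the Rian stretch and named after its values were seen, had 25.8, 46.9, 22.0 and 29.0 in Chow and 17.7, 21.9 and 21.0 in HFD. Its lowest Chow value, the single count of Chow 3, stood just above the highest HFD value (log2 fold change -0.63 with SE 0.48 and adjusted p = 0.467).

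For miR-134-5p, miR-382-5p and miR-494-3p of the distal stretch the estimates lay within 0.17 of 0 on the log2 scale. miR-134-5p, known in rat neurons for restraining the size of dendritic spines, had means of 65.5 ± 31.4 and 56.5 ± 24.6 normalised CPM and a log2 fold change of -0.07. miR-382-5p had means of 69.0 ± 14.9 and 72.7 ± 29.2 and a log2 fold change of 0.12. miR-494-3p had 15.7 ± 10.7 and 21.4 ± 6.08 and a log2 fold change of 0.17. In each of these the diets overlapped and HFD 1 was the highest HFD library. miR-543-3p, a distal member of like level named after its values were seen, had 3.31, 37.5, 66.0 and 25.7 normalised CPM in Chow and 4.197, 14.4 and 17.9 in HFD. Chow 1 was its lowest library and the diets overlapped (log2 fold change -0.93 with SE 0.82 and adjusted p = 0.556).

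miR-379-3p and miR-411-3p, the pair with a shared seed, both had positive estimates. miR-379-3p had counts of 8, 0, 1 and 15 in Chow and 34, 17 and 44 in HFD, and the largest positive estimate of the members on the log2 scale, 0.74 with SE 0.68 and adjusted p = 0.565. miR-411-3p had counts of 14, 3, 0 and 37 in Chow and 31, 24 and 129 in HFD, with a log2 fold change of 0.25. The estimates lie within one standard error of each other.

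The 3 stretches kept their proportions. The Meg3 to Rtl1 antisense stretch held 32.7% ± 2.89 of the cluster's counts in Chow and 31.9% ± 2.08 in HFD, and 3 of its 9 tested members had positive and 6 negative estimates (median -0.23). The Rian stretch held 1.94% ± 1.02 and 1.71% ± 0.100, with both tested members negative (median -0.52). The distal stretch held 65.4% ± 3.76 and 66.4% ± 2.17, with 8 positive and 16 negative of 24 tested (median -0.28). In each stretch the difference of the means was smaller than the spread among the Chow libraries.

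The use of the 2 arms of a hairpin gives a measure that does not depend on the library total. For 10 precursors both arms had enough counts, and the 3p share of their summed counts was compared between diets over libraries with at least 10 counts. None of the 10 passed an exact two-sided permutation test, where the smallest p was 0.2 and the smallest adjusted over the 10 was 0.762. With 4 against 3 libraries the smallest one-sided p is 0.0286, and the two-sided test doubles the smaller one-sided p. No precursor could therefore reach 0.05, with 4 usable Chow libraries or fewer. The lack of calls was fixed in advance and says nothing of diet.

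In the 5 hairpins with 3 or 4 usable Chow libraries, the same arm prevailed on either diet. miR-379 gave nearly all its reads from the 5p arm, with a 3p share of 1.93% ± 1.48 in Chow and 3.64% ± 1.63 in HFD. miR-411 likewise had a low 3p share, 9.28% ± 5.21 and 8.07% ± 1.54 (n = 3 and 3). miR-127 was the opposite case, with 92.8% ± 9.10 and 91.8% ± 2.49 from the 3p arm. miR-434 gave 23.8% ± 4.19 and 29.0% ± 4.31 from its 3p arm, and miR-382 gave 33.1% ± 11.9 and 30.8% ± 3.19.

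In the remaining 5 hairpins 2 Chow libraries could be used. The 3p share of miR-136 was 49.3% and 56.9% in Chow 1 and Chow 4 and 39.8%, 38.7% and 42.8% in HFD; these did not overlap, but 2 against 3 libraries gave p = 0.2 by the exact permutation test. The mean 3p shares in Chow and HFD were 38.3% and 46.0% for miR-329, 71.2% and 72.2% for miR-369, 33.1% and 29.7% for miR-376b, and 39.4% and 46.7% for miR-485. The log2 fold changes of single arms not given elsewhere were -0.22 for miR-329-3p, 0.07 for miR-369-3p, 0.19 for miR-376b-5p, -0.34 for miR-376b-3p, -0.03 for miR-382-3p and -0.87 for miR-485-3p. None passed the test, and the Chow counts of these arms were 0 or 1 in Chow 3.

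Libraries of one diet differed in arm use by more than counting error. The 3p share of miR-127 was 79.8% (exact 95% interval 75.0% to 84.0%) in Chow 1 and 93.4% (90.5% to 95.6%) in Chow 4, which are of like depth. For miR-329 it was 21.5% (13.7% to 31.2%) in Chow 1 and 55.0% (38.5% to 70.7%) in Chow 4. For miR-382 it was 43.8% (36.5% to 51.3%) in Chow 1 and 20.2% (14.6% to 26.9%) in Chow 4. Within HFD, miR-369 ranged from 87.3% (75.5% to 94.7%) in HFD 1 to 53.4% (45.0% to 61.7%) in HFD 3.

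Chow 1 also held high levels of the 5p arms of miR-127 and miR-329. miR-127-5p had 67, 1, 0 and 26 counts in Chow and 15, 29 and 87 in HFD, or 44.4 normalised CPM in Chow 1 and at most 13.5 elsewhere. miR-329-5p had 73, 0, 0 and 18 counts in Chow and 29, 20 and 66 in HFD, or 48.4 normalised CPM in Chow 1 and at most 13.5 elsewhere. Each had a log2 fold change of -0.89 that rested on that library. Without Chow 1 the values were 0.26 for miR-127-5p and 0.82 for miR-329-5p.

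**Figure D4:**
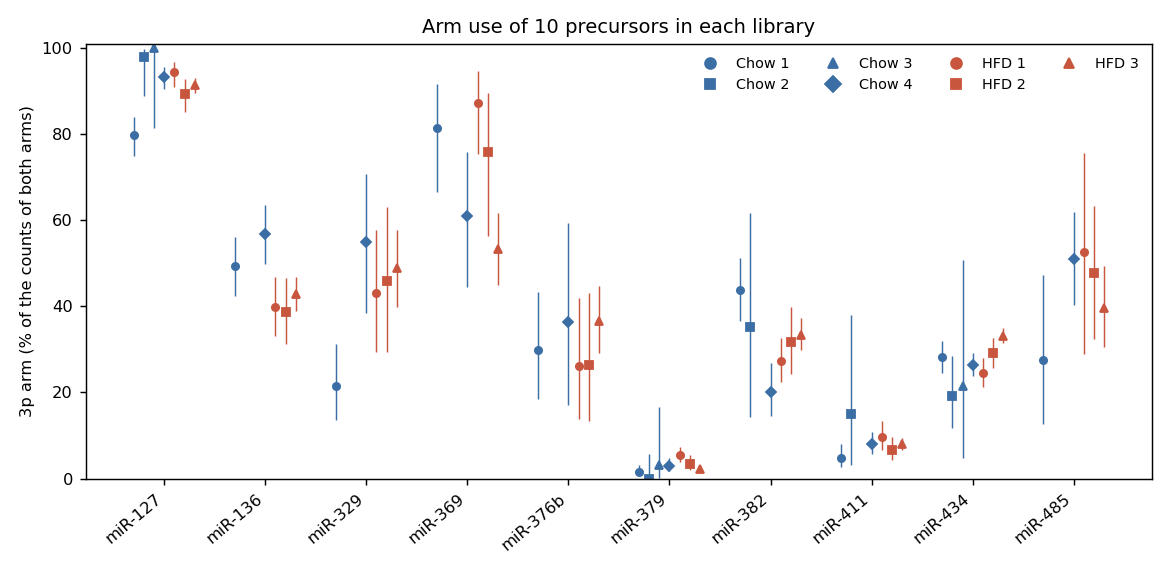
Share of the 3p arm in the summed counts of both arms (y axis, %) for 10 precursors; each point is a library with at least 10 counts over both arms, coloured by diet and shaped by replicate number, with exact 95% counting intervals. miR-379 and miR-411 lie near the bottom and miR-127 near the top on either diet, and Chow 1 and Chow 4 stand apart for miR-127, miR-329 and miR-382.

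Some members share their position with a miRNA annotated on the opposite strand. The arms of miR-136 overlap those of miR-3071 by 19 to 20 bases, and the sequences are shown to let the complement be read.
miR-136-5p: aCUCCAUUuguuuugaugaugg
miR-3071-3p: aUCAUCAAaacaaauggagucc
miR-136-3p: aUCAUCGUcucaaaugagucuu
miR-3071-5p: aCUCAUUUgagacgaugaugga
miR-136-5p lies at chr12:109595331-109595352 on the plus strand and miR-3071-3p at chr12:109595329-109595350 on the minus strand. miR-136-5p had 73.5, 0, 88.0 and 43.3 normalised CPM in Chow and 59.2, 47.9 and 55.1 in HFD. miR-3071-3p had 86.8, 0, 110.0 and 54.8 in Chow and 72.3, 63.2 and 71.6 in HFD, so that it exceeded miR-136-5p in each of the 6 libraries where either was found. In all, miR-3071-3p had 1006 counts against 793, a ratio of 1.27.

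The other arm behaved alike, with 646 counts for miR-136-3p and 613 for miR-3071-5p, a ratio of 0.949. The sources used here do not say whether strand was used in counting, so the reads of such partners cannot be told apart. miR-136-5p had a log2 fold change of 0.18 and miR-136-3p of -0.23, and those of miR-3071-3p and miR-3071-5p were 0.24 and -0.18, at adjusted p-values of 0.894 and 0.909 by edgeR. Overlap alone did not go with equal counts. miR-337-5p had 264 counts and miR-3544-3p, opposite it over 17 bases, had 3, while miR-337-3p and miR-3544-5p had 2 each.

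**Figure D5:**
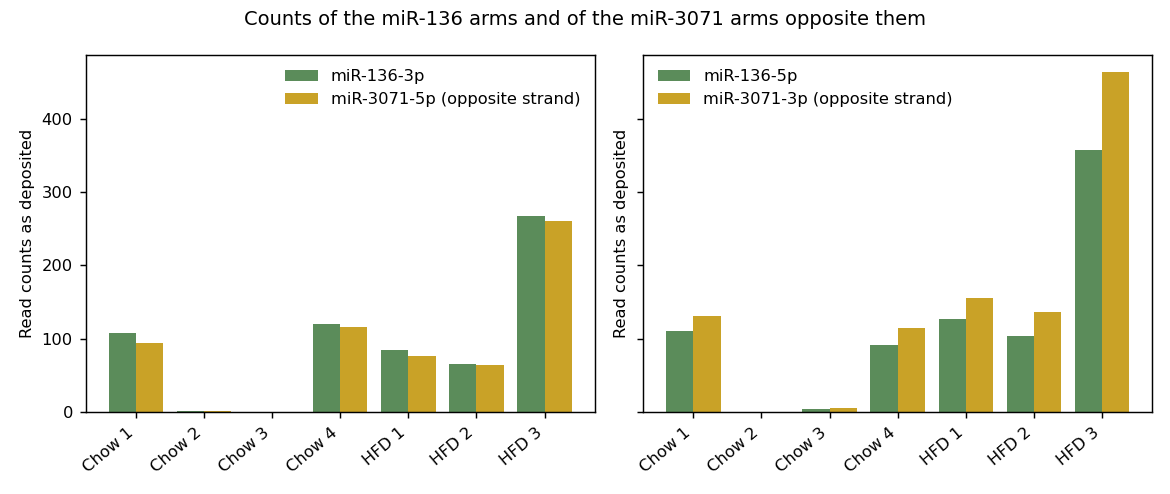
Deposited read counts (y axis) of the 3p arm (left) and the 5p arm (right) of miR-136 and of the miR-3071 arm on the opposite strand, in each library. The paired bars rise and fall together from 0 to 5 counts in the shallow Chow 2 and Chow 3 to 260 to 464 counts in HFD 3.

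The cluster was set beside the miRNAs of other imprinted loci. The Sfmbt2 intron miRNAs were taken by number (miR-297, miR-466, miR-467 and miR-669), so an entry of these families from elsewhere would be included. Of their 52 entries 13 were tested. They held 0.0361% ± 0.0178 of counts in Chow and 0.0287% ± 0.00486 in HFD, with 0 called and a median log2 fold change of -0.39. Counts were identical for miR-466a-3p and miR-466b-3p, for miR-467a-5p and miR-467b-5p, and for miR-467a-3p and miR-467d-3p. The same reads may thus enter these values more than once. Of 6 entries from the remaining imprinted loci 4 were tested and 0 were called. One of them, miR-335-5p from an intron of Mest, had 470 ± 261 normalised CPM in Chow and 1192 ± 318 in HFD without overlap (log2 fold change 1.32 with SE 0.47 and adjusted p = 0.122). Its standard error was that of the abundant Dlk1-Dio3 members, and none of theirs reached a fold change of that size in either direction. The difference between the cluster and these other loci was not tested.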

How the data were processed

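Small RNA of adipose-tissue EVs was sequenced in 4 Chow and 3 HFD libraries. The values are whole read counts per mature miRNA as deposited, checked against the files; Bowtie is named per the submitters' processing notes, and the sources used here give neither its settings nor a build or the use of strand. The combined table was used; with blanks as 0 the separate tables differed from it in 0 values. Members and lists were chosen with earlier results of these data known. Named members were the 10 with the highest mean level, up to 5 with the smallest p in each direction, both arms of the precursors tested for arm use, and tested pairs with one seed. Any member past the threshold would also have been named.

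edgeR 4.0.16 in R 4.3.3 (TMM, filterByExpr, quasi-likelihood F test on diet) was fitted to all miRNAs, with Benjamini-Hochberg adjustment and a threshold of 0.05. The 46 unnamed predictions stayed in the table. Normalised CPM is the count over the TMM-scaled library total. Standard errors were taken from the fold change and F, and left out for 3 members where the test used a Poisson bound. Alternatives were DESeq2 1.42.0, limma 3.58.1, other scalings and filters, a replicate block and the omission of libraries. The code was checked on simulated counts. Sequences and positions come from RefSeq (GRCm38.p6) and gene overlaps from GENCODE.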

Additional observations from a re-analysis of the deposited data

Results flagged for a closer look

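Among 31 members screened over the 4 Chow libraries, 1 had a library far from the others, where chance gives about 1 in 20. miR-493-5p stood at 21.99 normalised CPM in Chow 3, against 1.99 to 4.69 in the other Chow libraries. That value is a single count in the shallowest library. In the fit the member had a log2 fold change of 0.27 with a standard error of 0.76.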

How the results depend on the processing

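No member was called under any of the 19 alternatives of the fit (smallest adjusted p 0.164, without Chow 1). The count of calls over all miRNAs was 11 and became 18 with DESeq2 size factors in edgeR, 38 with library size only, 62 with no filter, 41 with DESeq2 and 23 with the replicate block. It was 0 without Chow 2 and Chow 3 (95 at an unadjusted p under 0.05) and 0 to 32 with each library left out. Libraries of like replicate number had correlations of deviations of 0.04, -0.17 and -0.06, and those of unlike number -0.26 to 0.34. So few libraries cannot settle whether the numbers pair them. With the block the members called stayed at 0. The members' median of -0.29 became 0.054 with library size only (all miRNAs 0.31) and 0.22 with no filter (all miRNAs 0.56). It became -0.52 with DESeq2 (all miRNAs -0.70, so that the members lay above it by 0.18). With each library left out it ran from -0.37 to -0.0024. The members' median lay below that of all miRNAs in every fit but DESeq2. The log2 ratio of the cluster's share moved from -0.08 to -0.71 without miR-148a-3p in the total, to 0.098 without Chow 2 and Chow 3, and from -0.17 (without Chow 1) to 0.0016 (without Chow 3) with each library left out. The difference in members detected, HFD minus Chow, fell from 21.8 to 2.46 after thinning and to 5.50 without Chow 2 and Chow 3, and that in the share of the top 5 shrank from -10.4 to -2.36 percentage points without those 2. The count of calls on arm shares stayed at 0, since that test could not reach 0.05 with these numbers of libraries.

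Of 25 named members tested, 10 kept the sign of the log2 fold change under all 19. The others, none of them called, changed sign as follows. With library size only the values were 0.19 (miR-134-5p), 0.18 (miR-136-3p), 0.16 (miR-329-3p), 0.051 (miR-376b-3p), 0.34 (miR-382-3p) and 0.26 (miR-434-3p), and with no filter 0.22, 0.14, 0.14, 0.016, 0.28 and 0.32 in that order. With DESeq2 they were 0.059 (miR-134-5p), 0.10 (miR-382-3p), 0.039 (miR-434-3p) and -0.029 (miR-493-5p), and with its size factors in edgeR 0.024, 0.088 and 0.045 for the first 3. Upper-quartile scaling gave 0.035 (miR-382-3p). Fits without miR-148a-3p gave 0.00033 (miR-134-5p), 0.027 (miR-382-3p) and 0.018 (miR-434-3p). limma-voom gave 0.00022 (miR-136-3p), 0.017 (miR-382-3p) and -0.43 (miR-493-5p), and the replicate block 0.58 (miR-136-3p), 0.10 (miR-434-3p) and -0.50 (miR-493-5p). Without Chow 2 and Chow 3 the values were 0.034 (miR-134-5p), -0.11 (miR-136-5p), -0.24 (miR-369-3p), -0.19 (miR-376b-5p) and -0.15 (miR-411-5p).

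With each library left out, the range was -1.20 to 0.26 for miR-127-5p, -0.36 to 0.20 for miR-134-5p, -0.55 to 0.20 for miR-136-3p, -0.23 to 0.65 for miR-136-5p, -1.28 to 0.82 for miR-329-5p, -0.13 to 0.68 for miR-369-3p, -0.80 to 0.22 for miR-376b-3p and -0.17 to 1.52 for miR-376b-5p. It was -0.33 to 0.60 for miR-382-3p, -0.11 to 0.39 for miR-382-5p, -0.0013 to 0.62 for miR-411-3p, -0.27 to 0.26 for miR-434-3p and -0.24 to 0.48 for miR-493-5p. The HFD minus Chow difference in 3p share, in percentage points, ran from -5.32 to 1.43 for miR-127, -9.03 to 24.5 for miR-329, -9.21 to 11.2 for miR-369, -8.72 to 3.06 for miR-382, -3.45 to 1.65 for miR-411 and -4.47 to 19.1 for miR-485. With at least 30 counts over both arms it was 1.43 (miR-127), -0.837 (miR-369), 1.65 (miR-411) and -7.45 (miR-485), and without Chow 2 and Chow 3 it was 5.21 (miR-127) and 1.65 (miR-411). Apart from the samples or entries each alternative leaves out, the cause of these changes was not tested. The depth of Chow 2 and Chow 3 limits every member below the floor of 3 counts there. Leaving out miR-3071 and miR-3544 was chosen after seeing the data and changed no call.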
